A study of Mus musculus with 5 samples.

Results

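The genes described here encode the collagen chains, and RNA from 42 of them was measured in 5 libraries of mouse embryo pituitaries at day e12.5. They are all the gene symbols made of Col, a type number, the letter a and a chain number, taken from the 20097 symbols of the deposited all-gene table without regard to their values. The symbol Col10a1 has 2 listed regions and every other has 1, and of several regions the longest was used. By type number, 10 genes were counted as fibrillar collagens (types 1, 2, 3, 5, 11 and 24), 8 as basement membrane collagens (types 4, 15 and 18) and 24 as other collagens. The control group held 3 libraries from embryos of genotype Itgb1 f/f, whose Itgb1 alleles are floxed but intact (controls 9, 10 and 12). The knockout group held 2 libraries from littermates of genotype Itgb1 f/f with Pitx1-cre (knockouts 13 and 16). All embryos carried the floxed alleles and were of strain B6;129, and the labels describe the RNA as coming from separate biological replicates of epithelial pituitary cells. The Pitx1-cre transgene acts in the oral ectoderm and the pituitary that forms from it, so cells of another origin in the sample keep Itgb1. The sources used here do not give sex, pooling or how the tissue was isolated.

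Itgb1 encodes integrin beta 1, the subunit shared by the collagen-binding integrins and by most laminin and fibronectin receptors. Collagens are secreted proteins in which 3 chains wind into a triple helix. Fibrillar collagens assemble into the fibres of connective tissue and cartilage and are made mainly by mesenchymal cells, while type IV chains build the mesh of basement membranes under epithelia and around vessels. The pituitary pouch is an epithelium on a basement membrane, surrounded by head mesenchyme and close to the forming cartilage of the skull base.

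Levels are in tags, counted per 10000000 tags sequenced in that library, and a level per kilobase (kb) divides by the length of the gene region, which spans introns. Reads over all listed genes numbered from 4480809 to 6143263 per library. The libraries differed in ways that reach every gene. A set of 393 genes for odour and pheromone receptors, not transcribed in most tissues, gave the receptor background: 0.157 to 0.392 tags per kb in the controls, 0.472 in knockout 13 and 1.497 in knockout 16. The ribosomal precursor Rn45s took 16.8% to 23.5% of tags in the controls, 14.2% in knockout 13 and 8.88% in knockout 16. Relative to the control mean, the median gene was higher by 0.80 on the log2 scale in knockout 13 and by 1.28 in knockout 16. Single-gene differences are therefore given relative to the median gene ("relative log2"), on log2(value + 1). A "scaled" level has the receptor background per kb of its library, times region length, subtracted (floor 0) and is then multiplied by a TMM factor, a normalization that equalizes the bulk of genes between libraries.

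Promoter sequences of 4 collagen genes show the regions from which the chains discussed most are transcribed. They come from RefSeq (GRCm38.p6), which held promoters for 33 of the 42 genes, and each is the part of the 250 bases before the annotated start that lies outside annotated exons, printed 5′ to 3′ on the strand of the gene. Col1a2 (chr6:4505370-4505492, plus strand) and Col3a1 (chr1:45311288-45311537, plus strand) encode the fibrillar chains with the lowest relative levels in knockout 16. Col4a5 (chrX:141475169-141475384, plus strand) and Col4a6 (chrX:141474077-141474326, minus strand) are a head-to-head pair of basement membrane genes with starts 1343 bp apart. Capitals mark GC boxes (GGGCGG, or CCGCCC where the box is on the opposite strand) in Col1a2 and Col4a6, a TATA box (TATAAA) in Col3a1 and a CCAAT box in Col4a5.
Col1a2: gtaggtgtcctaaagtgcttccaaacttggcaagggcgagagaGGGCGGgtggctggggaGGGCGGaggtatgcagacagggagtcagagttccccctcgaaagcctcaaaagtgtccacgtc
Col3a1: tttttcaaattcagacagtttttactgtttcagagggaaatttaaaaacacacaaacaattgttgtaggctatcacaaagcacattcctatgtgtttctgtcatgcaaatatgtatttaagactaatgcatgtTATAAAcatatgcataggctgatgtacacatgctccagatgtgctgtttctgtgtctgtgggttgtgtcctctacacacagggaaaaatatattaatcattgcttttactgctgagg
Col4a5: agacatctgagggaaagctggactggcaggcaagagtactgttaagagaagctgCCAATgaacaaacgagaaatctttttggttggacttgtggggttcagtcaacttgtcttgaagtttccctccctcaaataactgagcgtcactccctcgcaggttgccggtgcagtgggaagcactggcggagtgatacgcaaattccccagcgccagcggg
Col4a6: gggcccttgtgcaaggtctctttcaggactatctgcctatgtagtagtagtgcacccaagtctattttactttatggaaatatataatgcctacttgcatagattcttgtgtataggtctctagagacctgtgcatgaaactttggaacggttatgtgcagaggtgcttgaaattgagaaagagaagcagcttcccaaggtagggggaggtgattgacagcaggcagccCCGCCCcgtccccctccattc
Counted from the start, the GC boxes of Col1a2 lie at -205 and -188, the TATA box of Col3a1 at -117, the CCAAT box of Col4a5 at -196 and the GC box of Col4a6 at -21. The full windows of 250 bases also hold 1 CCAAT box in Col1a2 and 1 GC box in Col4a5, outside the printed parts. Over all 36 windows of the 33 genes and both strands, the GC box occurred in 20 windows (55.6%), against 32.7% of all 32851 promoter windows of the same length. The TATA box occurred in 5 (13.9%, against 12.4% of all windows) and the CCAAT box in 12 (33.3%, against 33.9%). A match says that these letters are present, not that a factor binds.

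In the control pituitaries the collagen RNAs of highest level per kb, apart from Col6a6, were fibrillar. Col3a1, the type III chain of loose connective tissue, stood at 11.3 ± 3.71 tags per kb (SD, n = 3). Col1a1 and Col1a2, the chains of type I collagen, stood at 8.48 ± 2.97 and 5.46 ± 1.52, and Col2a1, the cartilage collagen, at 8.23 ± 2.15. The order of Col3a1, Col1a1 and Col2a1 lies within their spread. The next fibrillar genes were lower: Col5a2 at 1.52 ± 0.52 and Col11a1 at 1.08 ± 0.34, chains that join the type I and type II fibrils, and Col5a1 at 1.05 ± 0.21.

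Among basement membrane genes, Col18a1, a collagen with heparan sulphate side chains, was highest at 3.29 ± 1.01 tags per kb (SD, n = 3). Col4a1 and Col4a2, the chains of the basement membrane mesh found in most tissues, followed at 1.89 ± 0.49 and 1.27 ± 0.22. Col4a3, Col4a4, Col4a5 and Col4a6, whose products form the specialised meshes of kidney, lung, skin and muscle, lay between 0.264 and 0.397. These 4 genes were less than 2 times the receptor background on average over the controls, as were 10 other collagen genes. Without Col6a6 and Col10a1, whose regions are described separately, 18 of the remaining 40 genes lay at 4 times the receptor background or more, and 8 in between. All the fibrillar genes named above, Col18a1, Col4a1 and Col4a2 are among the 18.

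**Figure D1:**
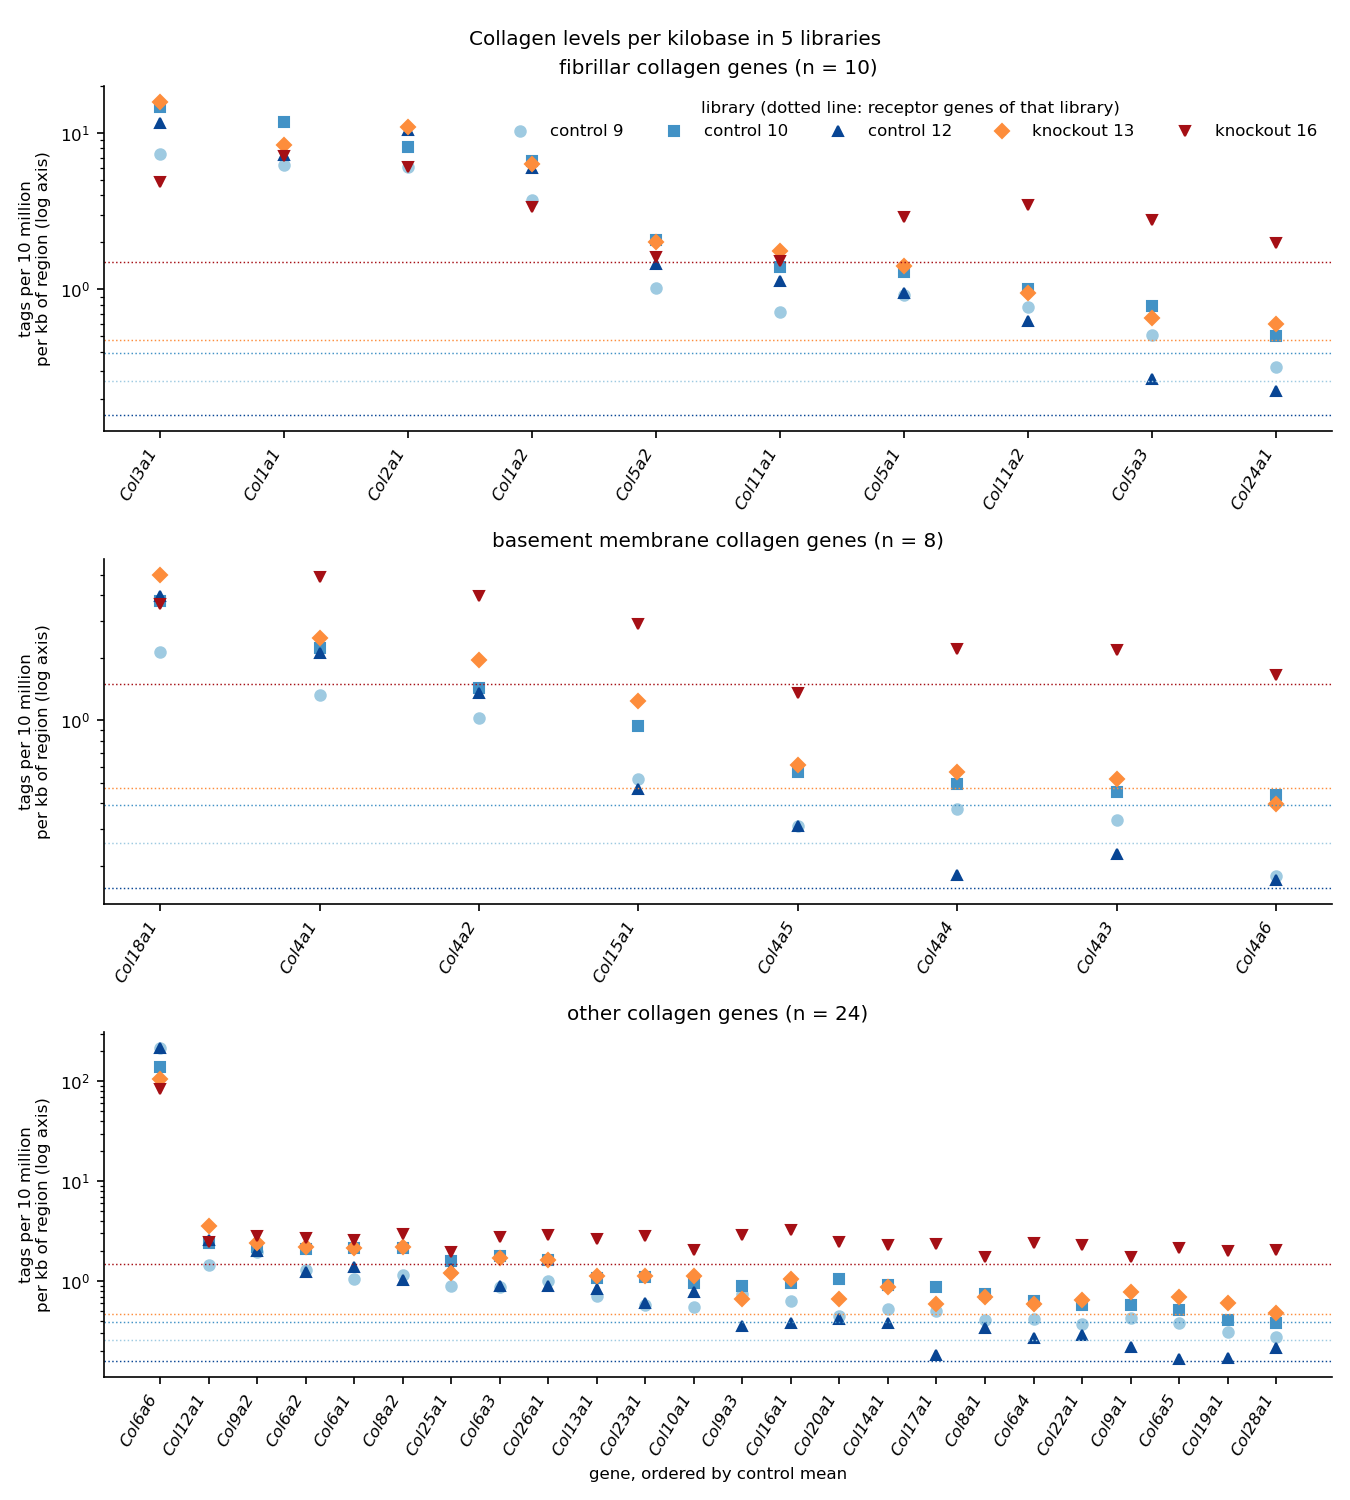
Level per kb of gene region (tags per 10000000 per kb, log axis) of each of the 42 collagen genes in the 5 libraries, by subgroup and ordered by control mean. Dotted lines mark the receptor background of each library in its colour. Knockout 16 lies near or above its own line at 1.497 for nearly every gene, and among the fibrillar genes it lies below every control only for Col3a1, Col2a1 and Col1a2.

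To ask whether loss of Itgb1 in the pituitary went with a change in collagen RNA, the 2 knockout libraries were compared with the 3 controls over the whole table. No collagen gene passed the threshold (0 of 42, limma, adjusted p under 0.05), and neither did any of the 19313 genes tested (0.0% called). The lowest adjusted p of a collagen gene was 0.0707 and the highest 0.979. At an unadjusted p under 0.05 there were 19 collagen genes, against 29.2% of all tested genes. The edgeR quasi-likelihood test called 0 collagen genes and DESeq2 called 1, Col6a6 (0.115% of all genes). The limma p-values above, and those printed below beside relative log2 differences, test the difference before the shift of the median gene is taken off. With each library centred on its median gene, limma also called 0 genes, and the lowest adjusted p was 0.826.

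As deposited, 21 collagen genes were above every control in both knockout libraries, a position held by 50.2% of all genes, and 1 was below every control in both, a position held by 0.202%. On the scaled values, 9 collagen genes were below every control in both knockout libraries (7.96% of all genes were) and 2 were above (7.97% were). The 9 were Col1a1, Col1a2, Col2a1, Col3a1 and Col5a2 among the fibrillar genes and Col6a1, Col6a6, Col9a2 and Col25a1 among the others, and the 2 were Col15a1 and Col19a1. On the scaled values limma again called none of the 42, as of all 14492 genes tested (0.0%), of which 1.93% had an unadjusted p under 0.05. That count rested on which knockout library entered. With knockout 13 left out, a setting added after the data were seen, limma on the scaled values called 18 collagen genes, against 22.7% of all 14484 genes. Of the 18, 12 were higher (6.96% of all genes were) and 6 lower (15.8% were). The 6 lower were Col1a2, Col3a1, Col5a2, Col11a1, Col4a5 and Col25a1. With knockout 16 left out it called 0 of 40 collagen genes that passed the filter (0.015% of all genes, 2 genes). With 1 knockout library, that library is assumed to vary like the controls.

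The median relative log2 difference of the 42 genes was 0.13, with 24 above the median gene and 18 below. The fibrillar genes had a median of -0.49 (3 above, 7 below), the basement membrane genes of 0.46 (6 above, 2 below) and the other genes of 0.13 (15 above, 9 below). The medians of single control libraries varied with an SD of 0.18 for the 42 genes, 0.09 for the fibrillar, 0.17 for the basement membrane and 0.24 for the other genes. These medians average 2 unlike libraries. In knockout 13 the median of the 42 genes was -0.22, with 5 above the median gene and 37 below. In knockout 16 it was 0.45, with 28 above and 14 below. The fibrillar genes had a negative median in each, -0.36 in knockout 13 (1 above, 9 below) and -0.93 in knockout 16 (4 above, 6 below). The medians of the basement membrane genes had opposite signs, -0.13 (1 above, 7 below) and 0.75 (7 above, 1 below), as had those of the other genes, -0.22 (3 above, 21 below) and 0.64 (17 above, 7 below).

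**Figure D2:**
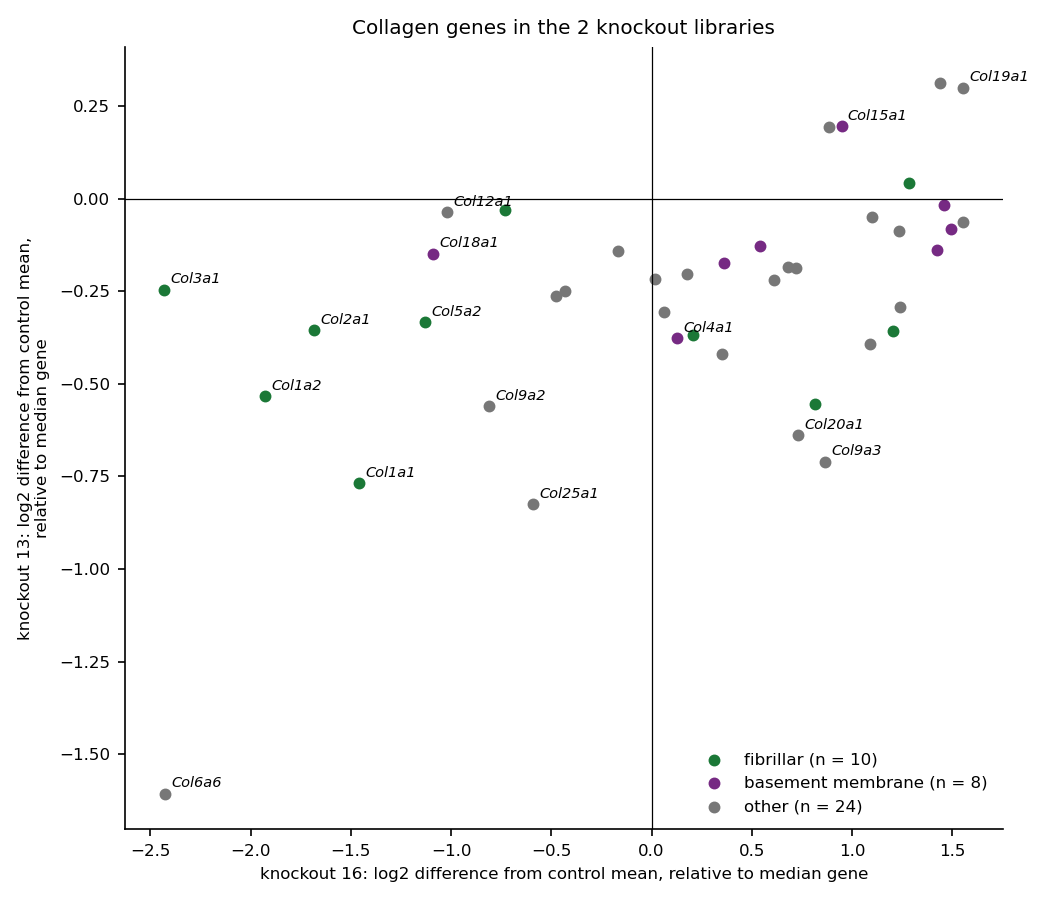
Relative log2 difference of each collagen gene from the control mean in knockout 16 (x axis) and knockout 13 (y axis), coloured by subgroup. Points for Col1a1, Col1a2, Col2a1, Col3a1 and Col5a2 lie below 0 on both axes, and 28 of the 42 genes lie to the right of 0 in knockout 16.

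The fibrillar genes of highest level lay below the median gene in both knockout libraries. Col3a1 (mm9 chr1:45369183-45406551) was at 277.27, 553.64 and 432.73 tags in controls 9, 10 and 12, at 596.36 in knockout 13 and at 181.82 in knockout 16. On the values as deposited, knockout 13 was thus above every control and knockout 16 below every control. Scaled, the controls were at 410.3, 483.6 and 440.3, knockout 13 at 373.4 and knockout 16 at 137.5, so both lay below every control. The relative log2 difference was -1.27 ± 0.54 (SE; limma, adjusted p = 0.678).

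For type I collagen, Col1a2 (chr6:4456497-4491543) was at 131.82, 233.64 and 209.09 tags in the controls, 224.55 in knockout 13 and 118.18 in knockout 16. Col1a1 (chr11:94798384-94813170) was at 92.73, 175.45 and 108.18 in the controls, 123.64 in knockout 13 and 106.36 in knockout 16. As deposited, only knockout 16 for Col1a2 lay outside the controls. Scaled, Col1a2 was at 188.2, 197.3 and 210.0 in the controls, 134.2 in knockout 13 and 71.8 in knockout 16, and Col1a1 at 136.3, 152.2 and 109.2, then 75.3 and 92.0. Each knockout library was then below the lowest control for both chains, and the gap from the control spread was wider for Col1a2. The relative log2 differences were -1.16 ± 0.54 for Col1a2 (SE; limma, adjusted p = 0.793) and -1.04 ± 0.55 for Col1a1 (adjusted p = 0.924).

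Col2a1 (chr15:97806433-97834755), which forms the fibrils of cartilage and is also made in the notochord and in some embryonic epithelia, was at 173.64, 230 and 295.45 tags in the controls, 310.91 in knockout 13 and 171.82 in knockout 16. As deposited, knockout 13 was above every control and knockout 16 below every control. Its scaled levels were 255.0, 196.4 and 300.1 in the controls, 192.0 in knockout 13 and 141.4 in knockout 16. Knockout 13 lay just under the lowest control, by less than the distance between any 2 controls. Its relative log2 difference was -0.95 ± 0.54 (SE; limma, adjusted p = 0.979).

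Of the chains that join these fibrils, Col5a2 (chr1:45431576-45559727) was at 131.82, 264.55 and 187.27 tags in the controls, 259.09 in knockout 13 and 207.27 in knockout 16, within the range of the controls in each. Scaled, the controls were at 151.5, 192.2 and 172.4, knockout 13 at 128.2 and knockout 16 at 16.8. Col11a1 was at 134.55, 262.73 and 213.64 as deposited in the controls, 335.45 in knockout 13 and 287.27 in knockout 16, and scaled it stood at 131.6, 169.2 and 189.8 in the controls, 158.9 in knockout 13 and 4.73 in knockout 16. For both genes the scaled level in knockout 16 is what remained after nearly all of the deposited value was subtracted as background over a region longer than 100 kb.

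Col5a1, the partner of Col5a2 in type V collagen, stood on the other side in knockout 16. It stood at 140.91, 196.36 and 143.64 tags in the controls, 214.55 in knockout 13 and 444.55 in knockout 16, and scaled at 155.9, 122.6 and 123.5, then 92.1 and 236.6. Knockout 13 was below every control and knockout 16 above every control on the scaled values. The remaining fibrillar genes, Col5a3, Col11a2 and Col24a1, were of low level in the controls (0.349 to 0.804 tags per kb), and each had its highest level of any library in knockout 16, at 1.97 to 3.50 tags per kb.

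Summed over the 10 fibrillar genes, the scaled level was 1491.2, 1568.9 and 1581.2 in the controls, 1188.2 in knockout 13 and 954.5 in knockout 16, or 76.8% and 61.7% of the control mean. The sum over Col1a1, Col1a2, Col2a1 and Col3a1 alone, which made up 26.2% of the summed scaled collagen level of the controls (40 genes, without Col6a6 and Col10a1), was 989.8, 1029.4 and 1059.6 in the controls. It was 774.9 in knockout 13 (75.5% of the control mean) and 442.8 in knockout 16 (43.1%). These sums, and the share of 26.2%, are not divided by region length, so long genes weigh more in them than in levels per kb. With 3 controls and 2 knockout libraries, an exact permutation test has 10 splits and cannot go below p = 0.1. In these bulk samples, fewer cells that make a collagen, less collagen RNA per cell and differences between the libraries cannot be told apart. In knockout 16 the relative log2 difference fell with control level per kb across all 19313 genes too (Spearman's rho -0.92).

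**Figure D3:**
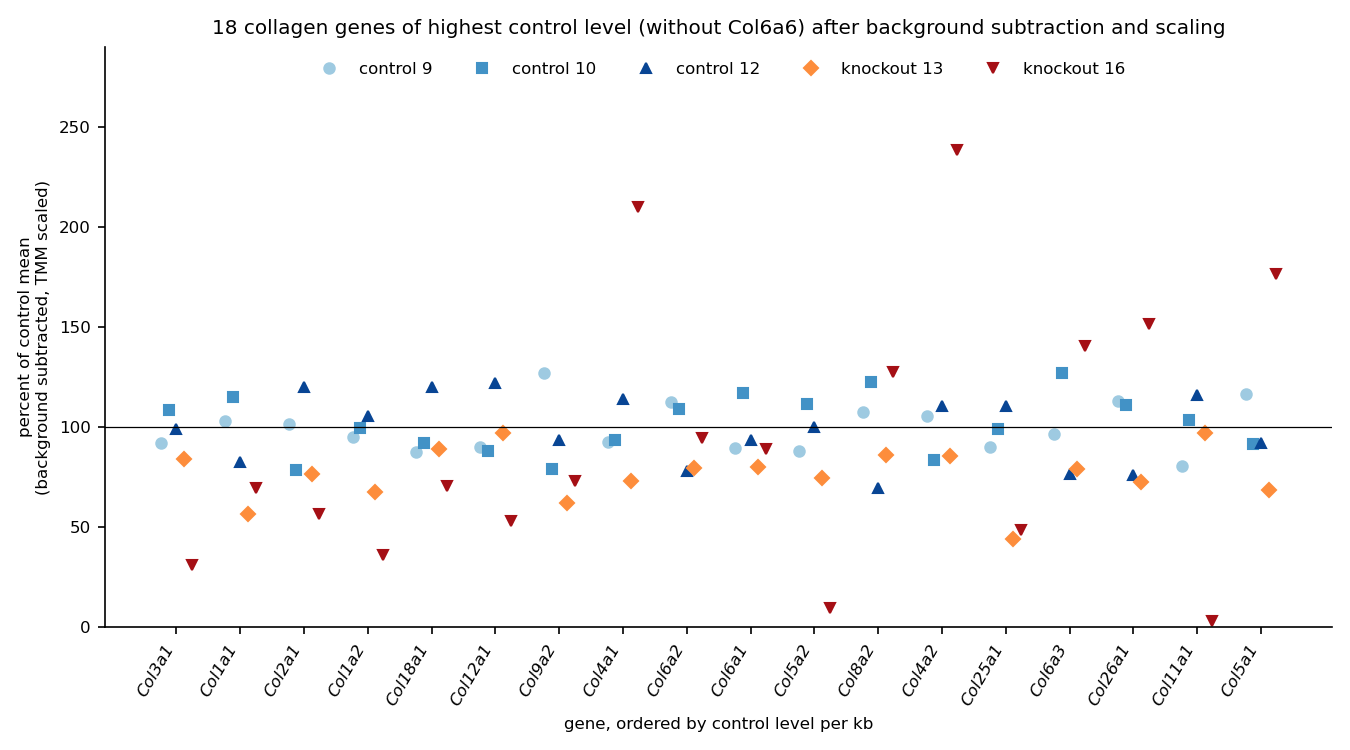
Scaled level of the 18 collagen genes, Col6a6 left out, at 4 times the receptor background or more, as a percent of the mean of the 3 controls (line at 100), for each library. Both knockout libraries lie below every control for Col1a1, Col1a2, Col2a1, Col3a1, Col5a2, Col6a1, Col9a2 and Col25a1, whereas knockout 16 lies far above for Col4a1, Col4a2 and Col5a1.

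The basement membrane genes did not move together. Col18a1 (chr10:76515324-76628875) was at 241.82, 426.36 and 450.91 tags in the controls, 566.36 in knockout 13 and 410 in knockout 16. Scaled it stood at 325.8, 342.5 and 446.7, then 330.9 in knockout 13, within the controls, and 262.2 in knockout 16, below them. Its relative log2 difference was -0.55 ± 0.54 (SE; limma, adjusted p = 0.557).

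The Col4a1 and Col4a2 genes lie head to head, with annotated starts that overlap by 22 bp in the RefSeq promoter set used above. Col4a1 was at 150, 253.64 and 239.09 tags in the controls, 280.91 in knockout 13 and 555.45 in knockout 16. Col4a2 was at 139.09, 194.55 and 183.64 in the controls, 264.55 in knockout 13 and 533.64 in knockout 16. Both genes were above every control in both knockout libraries as deposited. Scaled, Col4a1 was at 185.1, 187.6 and 228.2 in the controls, 146.7 in knockout 13 and 421.1 in knockout 16, and Col4a2 at 159.6, 126.8 and 167.5, then 129.4 and 361.1. The libraries thus lay on opposite sides of the controls for Col4a1, and knockout 13 was within them for Col4a2. Their relative log2 differences were -0.05 and 0.16, each smaller than its SE of 0.54 (limma, adjusted p = 0.227 and 0.146).

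Col15a1 (chr4:47221684-47326037), a collagen of the zone under the basement membrane, was 1 of the 2 genes above every control in both libraries also when scaled. It stood at 54.55, 98.18 and 49.09 tags in the controls, 129.09 in knockout 13 and 303.64 in knockout 16. The scaled levels were 42.4, 51.4 and 33.8 in the controls, 51.5 in knockout 13 and 161.1 in knockout 16, so knockout 13 equalled the highest control to within 1 tag. Its relative log2 difference was 0.64 ± 0.56 (SE). Its limma adjusted p was 0.0736 before the shift was taken off, and 0.826 with each library centred on its median gene.

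The X-linked pair whose promoters are printed above, and the pair Col4a3 and Col4a4, were near the receptor background in every library. Col4a5 was at 66.36, 120.91 and 66.36 tags in the controls, 130 in knockout 13 and 289.09 in knockout 16, and Col4a6 at 55.45, 135.45 and 52.73, then 121.82 and 508.18. Scaled, Col4a5 was at the floor of 0 in knockout 16 and between 17.6 and 34.0 in the controls. Col4a6 was at 0 in control 9 and knockout 13 and at 51.6 in knockout 16. The head-to-head neighbours thus took opposite sides in knockout 16 once background was subtracted. Col4a3 and Col4a4 were at 290.91 and 298.18 tags in knockout 16, against 30.91 to 60.91 and 24.55 to 67.27 in the controls. Summed over the 8 basement membrane genes, the scaled level was 770.5, 775.0 and 928.4 in the controls, 689.8 in knockout 13 (83.7% of the control mean) and 1459.6 in knockout 16 (177%).

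Among the other collagens, the microfibril-forming type VI chains Col6a1, Col6a2 and Col6a3 of connective tissue had relative log2 differences of -0.30, -0.27 and -0.03, each smaller than its SE. Col6a1 was at 17.27, 35.45 and 22.73 tags in the controls, 35.45 in knockout 13 and 42.73 in knockout 16, and Col6a2 at 34.55, 56.36 and 32.73, then 59.09 and 72.73. Col6a3 was at 67.27, 137.27 and 68.18 in the controls, 129.09 in knockout 13 and 211.82 in knockout 16. Scaled, Col6a1 was at 19.98, 26.0 and 20.8 in the controls against 17.9 in knockout 13 and 19.8 in knockout 16, which almost equalled the lowest control.

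Col9a2, a chain of type IX collagen that coats cartilage fibrils, was at 29.09, 32.73 and 30 tags in the controls, 36.36 in knockout 13 and 42.73 in knockout 16. Scaled it stood at 38.7, 24.1 and 28.5, then 18.9 and 22.2. Col9a1 and Col9a3, its partners, were lower in level, at 0.408 and 0.667 tags per kb in the controls. Col12a1, which binds the surface of fibrils, was at 173.64, 284.55 and 305.45 in the controls, 420.91 in knockout 13 and 295.45 in knockout 16, and Col8a2, of the short-chain type VIII collagen, at 30.91, 57.27 and 27.27, then 58.18 and 80. Its partner Col8a1 had a relative log2 difference of 0.27 and Col8a2 of -0.08.

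The type XIII, XIV, XVI, XVII, XX, XXII and XXIII genes and Col6a4 were of low level in the controls, between 0.414 and 0.869 tags per kb. They include Col17a1, of the epithelial hemidesmosome, and Col13a1 and Col23a1, which encode transmembrane collagens. All 8 lay below the median gene in knockout 13, by relative log2 differences of -0.05 to -0.64, and above it in knockout 16, by 0.35 to 1.24. Summed over the 22 other collagen genes without Col6a6 and Col10a1, the scaled level was 1560.1, 1620.1 and 1457.4 in the controls, 1069.5 in knockout 13 (69.2% of the control mean) and 2519.4 in knockout 16 (163%).

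Col25a1, a transmembrane collagen of neurons that spans 418 kb and is described here after its values were seen, was at 370.91, 660 and 546.36 tags in the controls, 503.64 in knockout 13 and 824.55 in knockout 16. Scaled, it stood at 403.4, 444.9 and 495.9 in the controls, 197.6 in knockout 13 and 216.8 in knockout 16. Both knockout libraries were thus below every control on that scale, whereas as deposited knockout 13 was within the controls and knockout 16 above them. In knockout 16 Col25a1 lay at 1.32 times the receptor background, so most of its deposited value there was subtracted. Its relative log2 difference was -0.64 ± 0.55 (SE; limma, adjusted p = 0.645), with -0.82 in knockout 13 and -0.59 in knockout 16.

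Col19a1, a collagen of low abundance known from muscle and synapses, had the highest fitted relative log2 difference of the 42, 0.998 ± 0.55 (SE). Its limma adjusted p was 0.0707 before the shift was taken off, and 0.826 with each library centred on its median gene. It stood at 100.91, 133.64 and 56.36 tags in the controls, 197.27 in knockout 13 and 656.36 in knockout 16. Scaled, it stood at 24.8, 4.10 and 4.94 in the controls, 27.1 in knockout 13 and 179.0 in knockout 16. Its region of 329 kb had a control level of 0.295 tags per kb, less than 2 times the receptor background. Col6a5 and Col28a1, also near that background, followed, with 222.73 and 398.18 tags in knockout 16 against at most 52.73 and 74.55 in the controls.

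The regions of 2 collagen symbols stood apart from the rest. Col6a6 (chr9:105592147-105730015) was at 29609.1, 18947.3 and 29461.8 tags in the controls, 14583.6 in knockout 13 and 11480.9 in knockout 16, and was the 1 collagen gene below every control in both as deposited. Its level was 1.33%, 1.13% and 1.25% of that of Rn45s in the controls and 1.02% and 1.29% in the knockout libraries, while other type VI genes were at 137.27 tags or less in the controls. DESeq2 called it lower (adjusted p = 0.00893), limma did not (adjusted p = 0.409). The longest region of Col10a1, the collagen of hypertrophic cartilage, covers 114 kb, whereas GENCODE M21 (GRCm38) gives the gene 7105 bp inside Nt5dc1, a gene of 130265 bp. That region held 62.73, 108.18 and 88.18 tags in the controls, 128.18 in knockout 13 and 232.73 in knockout 16. The short region of Col10a1 (chr10:34110587-34116891) held 6, 4 and 6 reads in the controls and 9 and 8 in the knockout libraries, with exact 95% Poisson intervals that overlap (1.09 to 10.2 reads for the lowest count, 4.12 to 17.1 reads for the highest, counting error only).

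Chains that assemble into 1 molecule were compared by the ratio of their levels per kb within each library, as deposited and with background included. Col4a1 to Col4a2 was 1.29, 1.56 and 1.55 in the controls, 1.27 in knockout 13 and 1.24 in knockout 16. Col6a1 to Col6a2 was 0.816, 1.03 and 1.13 in the controls, then 0.979 and 0.959. The ratio of the second pair was within the controls in both knockout libraries and that of the first just under them.

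Of 13 pairs compared as deposited, 5 lay above every control in knockout 16, 5 below and 3 within. Some of these positions changed with background subtracted. Col8a1 to Col8a2 was then 0.1661 (controls 0.1659 to 0.208) and Col4a1 to Col4a2 1.39 (1.38 to 1.77), both within. Col9a1 to Col9a3 at 0.179 (0.323 to 0.358) and Col11a1 to Col2a1 at 0.00501 (0.0774 to 0.129) were then below. The pairs Col1a1 to Col1a2, Col5a1 to Col5a2 and Col9a1 to Col9a2, the last at 0.185 (0.0343 to 0.102), stayed above. Among those above as deposited were the pairs of types I, V and VIII. Col5a1 to Col5a2 was 0.900, 0.625 and 0.645 in the controls, 0.697 in knockout 13 and 1.80 in knockout 16. Col1a1 to Col1a2 was 1.67, 1.78 and 1.23 in the controls, 1.30 in knockout 13 and 2.13 in knockout 16, and Col8a1 to Col8a2 was 0.330 to 0.352 in the controls, 0.322 in knockout 13 and 0.583 in knockout 16. Below every control in knockout 16 were Col4a5 to Col4a6 at 0.822 (controls 1.29 to 1.82) and Col11a1 to Col11a2 at 0.435 (0.926 to 1.80), besides Col4a1 to Col4a2 and the pairs of Col5a1 with Col5a3 and of Col6a1 with Col6a3. In knockout 13, 8 pairs were within the controls, 2 below and 3 above. The 3 above were Col11a1 to Col11a2 at 1.88 and the pairs of Col9a1 with Col9a2, at 0.317 (controls 0.110 to 0.263), and with Col9a3, at 1.16 (0.574 to 0.637).

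The difference of a collagen gene in knockout 16 followed its control level. Across 40 genes, without Col6a6 and Col10a1, Spearman's rho between control level per kb and relative log2 difference was -0.94 in knockout 16, and across all 19313 genes it was -0.92. In knockout 13 it was -0.51 across the 40 collagen genes and 0.05 across all genes. Genes are not independent replicates, the control mean enters both measures, and the genes share library depth, so these are descriptions. The 14 genes under 2 times the receptor background had median relative log2 differences of -0.08 in knockout 13 and 1.26 in knockout 16, where all 14 lay above the median gene. The 8 genes from 2 to 4 times had medians of -0.30 and 0.77. The 18 genes at 4 times or more had medians of -0.28 and -0.66, with all 18 below the median gene in knockout 13 and 13 of 18 below it in knockout 16. The 5 of these above it in knockout 16 were Col4a1, Col4a2, Col5a1, Col6a3 and Col26a1.

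**Figure D4:**
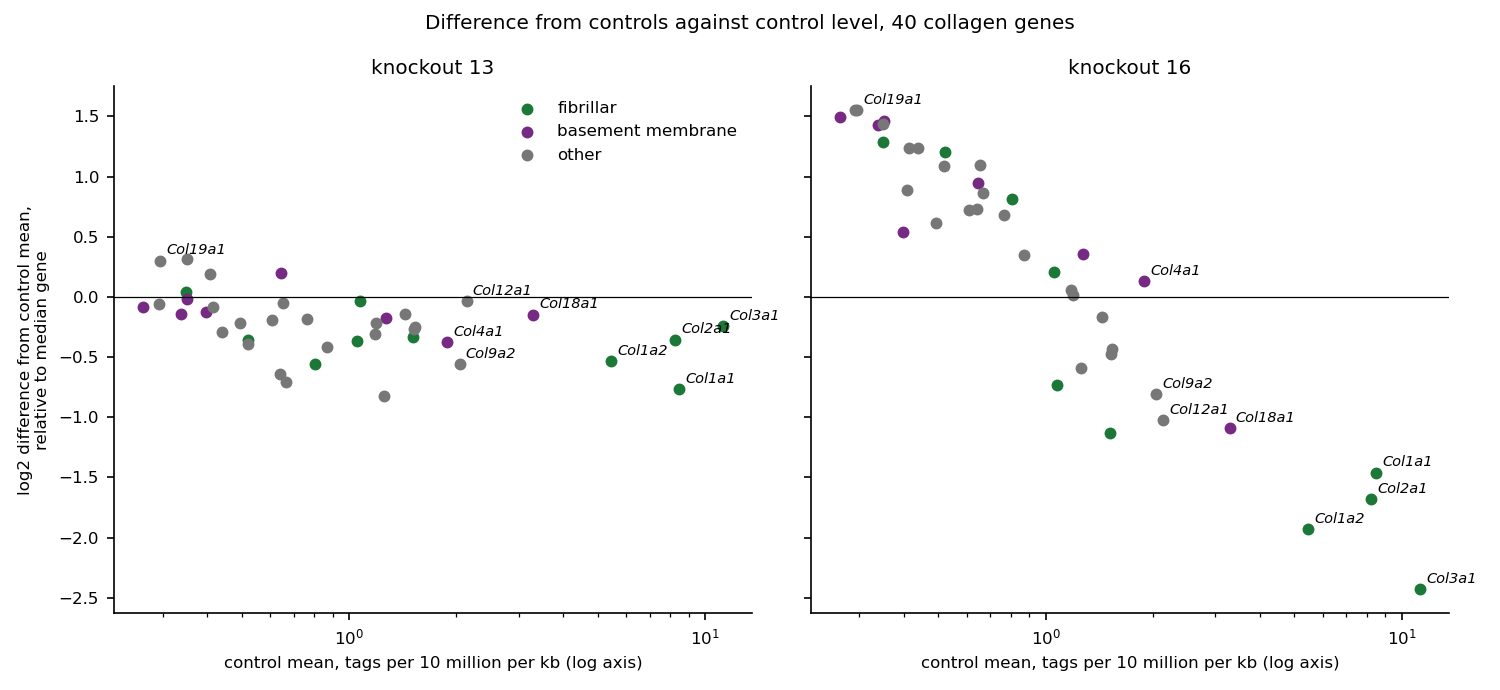
Relative log2 difference from the control mean against control level per kb (log axis) for 40 collagen genes in knockout 13 (left) and knockout 16 (right). In knockout 16 the points fall from about 1.5 for the lowest genes to -2.43 for Col3a1, and in knockout 13 they stay between -0.82 and 0.31.

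The authors' deposited table of changed genes lists 1140 genes, 6 of them collagens, 4 higher and 2 lower in the knockout. In the authors' deposited table Col19a1 has a log2 fold change of 2.42 (values 3 and 16 for control and knockout, p = 0.000316), Col5a2 1.5 (6 and 17, p = 0.00136), Col4a4 -0.28 (17 and 14, p = 0.00153) and Col10a1 -0.32 (15 and 12, p = 0.00251). The linear fold changes in the authors' deposited table are 5.3, 2.8, 0.8 and 0.8 in that order. A second linear fold change in the authors' deposited table is 3.70, 2.00, 0.588 and 0.571, different in size but on the same sides. In the limma fit of the all-gene table, the log2 difference of the values as deposited was 1.97 for Col19a1, 0.31 for Col5a2, 1.76 for Col4a4 and 1.03 for the long region of Col10a1. Relative to the median gene the differences were 0.998, -0.66, 0.79 and 0.06 in the same order. Col19a1 was thus on the side of the authors' deposited table on both scales, Col5a2 only as deposited, and Col4a4 and the long region of Col10a1 on neither. The authors' coordinates for Col10a1 (chr10:34109787-34116891) cover its short region, not the long one, so these values are not of the same region. The short region held 5.45, 3.64 and 5.45 tags in the controls, 8.18 in knockout 13 and 7.27 in knockout 16, and was not fitted. In knockout 13 alone the relative differences of Col4a4 and of the long region of Col10a1 were -0.02 and -0.20. The 2 others, Col7a1 and Col27a1, are not among the collagen symbols of the all-gene table. The sources used here do not say how the authors counted those values or from which libraries.

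Collagen chains are modified, folded, cut and crosslinked by a set of dedicated proteins, and the genes of these were read beside the chains. Of 35 biosynthesis and processing genes, 0 passed the threshold (limma), 14 were above the median gene and 21 below, with a median relative log2 difference of -0.19 (-0.10 in knockout 13, -0.36 in knockout 16). Serpinh1, the collagen chaperone of the endoplasmic reticulum, was at 240.9 ± 59.3 tags in the controls (SD, n = 3), 385.45 in knockout 13 and 107.27 in knockout 16. P4hb, a subunit of prolyl 4-hydroxylase, was at 292.7 ± 62.4 (SD, n = 3), 559.09 and 147.27. Sparc, which binds collagen outside the cell, was at 207.6 ± 36.8 (SD, n = 3), 382.73 and 153.64, and Loxl2, a crosslinking enzyme, at 186.7 ± 30.3 (SD, n = 3), 323.64 and 285.45. As deposited, Serpinh1, P4hb and Sparc thus lay above every control in knockout 13 and below every control in knockout 16. Scaled, knockout 13 was at 246.6 for Serpinh1, below every control, at 357.2 for P4hb, above every control, and at 239.4 for Sparc, within the controls. All 3 genes were below every control in knockout 16 on that scale too, at 105.6, 141.6 and 127.3. Scaled, the 35 genes summed to 2255.2 to 2549.5 in the controls, 2416.1 in knockout 13 and 2338.2 in knockout 16, within the controls in both.

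Of 10 collagen receptor genes measured, 0 were called, and 5 lay above the median gene and 5 below (median 0.05). Itgb1 itself was at 376.7 ± 90.0 tags in the controls (SD, n = 3), 446.36 in knockout 13 and 186.36 in knockout 16, and scaled at 399.5, 365.9 and 436.8 in the controls, 273.7 in knockout 13 and 126.5 in knockout 16. Its relative log2 difference was -1.32 (limma, adjusted p = 0.621). Ddr2 and Mrc2, a receptor kinase for collagen and an uptake receptor, were at -0.15 and -0.34, and Itga11, which pairs with integrin beta 1 on mesenchymal cells, at 0.20. Scaled and without Itgb1, the other 9 receptor genes summed to 398.4 to 467.9 in the controls, 349.5 in knockout 13 and 588.6 in knockout 16, on opposite sides of the controls. Of 16 regulators of collagen genes, 0 were called, 4 lay above the median gene and 12 below (median -0.26). The 4 of highest level, Sox6 and Sox5, partners of Sox9 in cartilage, and Tgfbr1 and Smad3 of the TGF-beta pathway, had relative log2 differences of -0.34, -0.25, -0.73 and -0.26. Sox9, the activator of Col2a1 and other cartilage genes and chosen here after its values were seen, was at 31.82, 31.82 and 35.45 tags in the controls, 19.09 in knockout 13 and 17.27 in knockout 16. It was below every control in both libraries as deposited, and at 46.9, 26.9 and 35.8 in the controls, 10.9 and 11.1 when scaled. Its relative log2 difference was -1.80 (limma, adjusted p = 0.353). Sox9 is also 1 of the 8 cartilage markers read below, of which 7 lay above the median gene in knockout 16.

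Markers of cell types the tissue could hold were read beside these values. At 4 times the receptor background of the library or more were 8 to 10 of 10 pouch epithelium markers in the controls, 9 in knockout 13 and 6 in knockout 16. The same was so of 7 to 10 of 11 head mesenchyme markers in the controls, 7 in knockout 13 and 1 in knockout 16, although the tissue is labelled epithelial. This cutoff rises with the background of the library, which was highest in knockout 16, so a lower count there need not mean a lower level. In knockout 16, 0 endothelial, mural cell, skeletal muscle and neural markers reached it. Of 11 head mesenchyme markers, 3 lay above the median gene and 8 below (median -0.67, with -0.33 in knockout 13 and -1.34 in knockout 16). Their summed scaled level was 383.1 to 426.8 in the controls, 345.0 in knockout 13 and 371.3 in knockout 16, and 6 of the 11 were below every control in both libraries on that scale, as were 7.96% of all genes. The pouch markers had medians of opposite sign, 0.53 in knockout 13 and -1.81 in knockout 16, and summed scaled levels of 731.1 to 891.3 in the controls, 1147.1 in knockout 13 and 550.5 in knockout 16. Of 8 cartilage markers, 1, Sox9, reached 4 times the receptor background in each control and in knockout 13, and 0 in knockout 16. In knockout 13, 1 lay above the median gene and 7 below, and in knockout 16, 7 lay above and 1, Sox9, below. By the fitted difference 4 of the 8 were above it and 4 below. The cartilage medians were -0.63 in knockout 13 and 0.69 in knockout 16. Their summed scaled levels were 67.2 to 122.4 in the controls, then 45.8 and 160.1. Median relative log2 differences were -0.05 for 8 endothelial, -0.28 for 7 mural cell, -0.26 for 8 neural, 0.55 for 8 skeletal muscle and 0.76 for 9 surface and oral epithelium markers, with 0 called in each list (limma). Scaled, the neural markers Rax, Nkx2-1 and Lhx2 (3 of 8) and 2 endothelial markers were below every control in both knockout libraries, and 0 of either list were above. In the mural cell, skeletal muscle and surface and oral epithelium lists 0 were below, and 0, 1 and 2 were above. The part of these markers in the collagen values was not tested.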

How the data were processed

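RNA from 3 control and 2 knockout samples was depleted of ribosomal RNA (Ribo-Zero), made into strand-specific libraries (ScriptSeq v2) and sequenced on an Illumina instrument, per the labels' protocols. Tools in the submitters' processing notes are HOMER, Bowtie2 and edgeR and the build is mm9, with no roles or versions. The authors deposited a signal for each gene region, normalized to 10000000 tags a library, per the file headers. All regions are listed on the plus strand and span introns, so overlapping and antisense genes cannot be told apart. Every value was a whole number of reads (100.0% within 0.01 reads), 11 reads for every 10 tags. For changed genes the authors deposited log2 fold changes, linear fold changes (a ratio), p-values of unstated adjustment and 1 value for each genotype, treated as a score because it has no stated unit.

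The collagen genes and all lists were chosen with earlier results of these data known. The test was the trended limma fit (limma 3.58.1 in R 4.3.3) of log2(value + 1), 2-sided, in 19313 genes whose mean reached 1, Benjamini-Hochberg adjusted at 0.05. All 42 collagen genes passed that filter. The log2 scale understates changes of low genes. Alternatives were other pseudocounts, filters and scalings, edgeR 4.0.16 and DESeq2 1.42.0 on recovered reads, and leaving out each library. Values were given per library for the 6 genes of highest control level per kb in each subgroup, partner chains, the 3 highest and 3 lowest relative differences, and genes in the authors' table, with ranges for some, and for Col25a1, chosen after its values were seen. Of the pathway lists, the 4 genes of highest mean level and Itgb1 were named. Tests on simulated counts were run beforehand. Amino acid sequences were not analysed here.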

Additional observations from a re-analysis of the deposited data

Results flagged for a closer look

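Of the collagen genes in the authors' deposited table, 2 have no row in the all-gene table. In the authors' deposited table Col7a1, the collagen of the fibrils that anchor skin epithelium, has values of 10 in the control and 32 in the knockout (log2 fold change 1.68, p = 0.000291). Col27a1, a fibrillar collagen of cartilage, has 6 and 19 in the authors' deposited table (log2 fold change 1.66, p = 0.00154). No value per library was analysed here for either gene, so neither enters the counts of collagen genes.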

How the results depend on the processing

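No paired analysis was possible because the control and knockout libraries share no replicate number. The count of called genes, and of called collagen genes, stayed at 0 with other pseudocounts, filters and scalings, in edgeR (457 of 15623 genes at an unadjusted p under 0.05) and with each library left out. DESeq2 called 23 genes, all lower, with 1 collagen gene, Col6a6. The fibrillar median relative log2 difference was -0.31 with a pseudocount of 5 and -0.60 with background subtracted and TMM factors, and the basement membrane median was 0.66 in the latter. Leaving out 1 library at a time gave medians of -0.22 to 0.45 for all collagen genes, -0.93 to -0.36 for fibrillar, -0.14 to 0.74 for basement membrane and -0.22 to 0.64 for other genes. In each, knockout 16 left out gave 1 end and knockout 13 the other, and only the fibrillar sign was the same in all.

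Settings added after the data were seen combined background subtraction and TMM factors with 1 knockout library. Without knockout 13, limma called 3290 genes (1008 higher, 2282 lower), 18 of them collagens, with medians of 0.91 for all, -0.65 for fibrillar, 1.59 for basement membrane and 0.91 for other collagen genes. Without knockout 16 it called 2 genes, none a collagen, with medians of -0.46 for all, -0.40 for basement membrane and -0.47 for other genes.

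Of 448 values of 32 named genes without the added settings, 411 kept their direction and 37, in 15 genes, did not. With background subtracted and TMM factors the relative log2 difference was -0.042 for Col10a1, 0.34 for Col4a1, -2.64 for Col4a5, 0.17 for Col5a1, 0.13 for Col6a3, -0.20 for Col8a1 and 0.12 for Col8a2. With a pseudocount of 5 it was 0.12 for Col4a1, 0.16 for Col5a1, 0.13 for Col6a3 and 0.035 for Col8a2. Col10a1 was at -0.024 in DESeq2 and -0.0081 with TMM factors, Col4a1 at 0.0070 and Col5a1 at 0.067 in edgeR, and Col5a1 at 0.0078 with a mean of at least 5 and 0.0094 with no filter. Leaving out 1 library gave ranges that cross 0 for Col10a1 (-0.21 to 0.17), Col11a2 (-0.56 to 0.81), Col28a1 (-0.067 to 1.55), Col4a1 (-0.38 to 0.13), Col4a2 (-0.18 to 0.36), Col4a3 (-0.14 to 1.42), Col4a4 (-0.022 to 1.46), Col4a5 (-0.13 to 0.54), Col4a6 (-0.086 to 1.49), Col5a1 (-0.37 to 0.20), Col5a3 (-0.36 to 1.20), Col6a3 (-0.22 to 0.11), Col8a1 (-0.22 to 0.61), Col8a2 (-0.22 to 0.044) and Col9a3 (-0.72 to 0.86). The cause of these changes was not tested. Subtracted background depends on region length, so levels of long genes near it, above all in knockout 16, are the least certain, and 2 knockout libraries limit every comparison.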
